A study of Arabidopsis thaliana with 4 samples.

Results

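The loci of the chloroplast and mitochondrial genomes were followed in ron3 mutant and control Ler plants of Arabidopsis thaliana, in the shoot apex. They were taken as all gene probes whose locus identifier begins with ATCG, for the plastid genome, or ATMG, for the mitochondrial genome. The array carries 5 such probes, 1 for each of 5 loci, among 37478 gene probes and 25665 loci in all. The plastid genome is represented by ATCG01000 and the mitochondrial genome by ATMG00285, ATMG00300, ATMG00516 and ATMG00580. The array files give no gene name for these loci, and the reference table lists its 129 plastid and 284 mitochondrial entries under other identifiers, so that 0 of the 5 could be given a symbol or a role. They are called by their identifiers throughout.

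Plant cells hold 3 genomes. The plastid genome encodes part of the photosynthetic complexes and of the plastid's own ribosomes and RNA polymerase, and the mitochondrial genome encodes part of the respiratory chain and of the mitochondrial ribosomes. Most subunits of the same complexes are encoded in the nucleus and imported, so that each complex draws on genes of both compartments. Plastid genes are transcribed by a bacterial-type polymerase, guided by nuclear-encoded sigma factors, and by phage-type polymerases of nuclear origin, which also transcribe the mitochondrial genome. In both organelles a poly(A) tail marks an RNA for breakdown, unlike in the cytosol.

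The study compared ron3 mutant apices with Ler apices by direct hybridisation on 4 two-colour Agilent arrays, a to d. Plants of both genotypes were grown in vitro to growth stage 1.02. RNA from ron3 carried Cy5 and RNA from Ler carried Cy3 on arrays a and c, and the dyes were swapped on arrays b and d. Neither the ron3 lesion nor the number of plants per extract is given in the labels, nor which arrays share an extract. The p-values of the reported fit measure the spread between arrays of the same dye orientation, moderated over all genes tested. That spread may therefore be technical, and the spread that the fit gave to the dye is left out. The labels describe conversion of total RNA to double-stranded cDNA and its transcription in vitro, and the primer is not given in the sources used here. The values below therefore concern the RNA that this step copied, which may be only some of a locus's transcripts.

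Between 55.5% and 59.5% of gene probes were well above background in ron3 and between 54.2% and 57.0% in Ler, array d was the dimmest in both dyes, and 0 gene spots were saturated. The locus listed as SIC (AT4G24500), which general knowledge equates with RON3, had log2 ratios of ron3 over Ler of −2.31, −2.27, −2.21 and −2.41 on arrays a to d (limma, adjusted p = 0.000152). Of 5 shoot apex markers, STM, CLV1 and KNAT1 were well above background in both genotypes on 4 arrays, and WUS and CLV3, which mark a few cells of the meristem, on 0 arrays.

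The plastid locus ATCG01000 was lower in ron3. Its processed signal, the deposited spot intensity after background subtraction and dye normalisation, was 3365, 3390, 3181 and 3670 in ron3 on arrays a, b, c and d, against 5526, 5604, 5816 and 7149 in Ler. Every ron3 value lay below every Ler value. Over all genes tested, the processed signals of 46.1% did not overlap between the genotypes, and those of 26.4% were all lower in ron3. The log2 ratios of ron3 over Ler, after background correction and loess normalisation within each array, were −0.71, −0.68, −0.77 and −0.89 on arrays a to d. The fall was seen on 4 of 4 arrays and in both dye orientations, with means of −0.74 where ron3 carried Cy5 and −0.79 where it carried Cy3. The fitted change was −0.76 ± 0.05 (SE; 95% interval −0.90 to −0.63), which is 59.0% of the Ler level (limma, adjusted p = 0.000526). ATCG01000 thus passed the threshold of 0.05, as did 69.7% of all genes tested in either direction and 32.7% downwards. Of 19269 genes tested, 937 had a lower fitted change, or 4.86%.

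**Figure D1:**
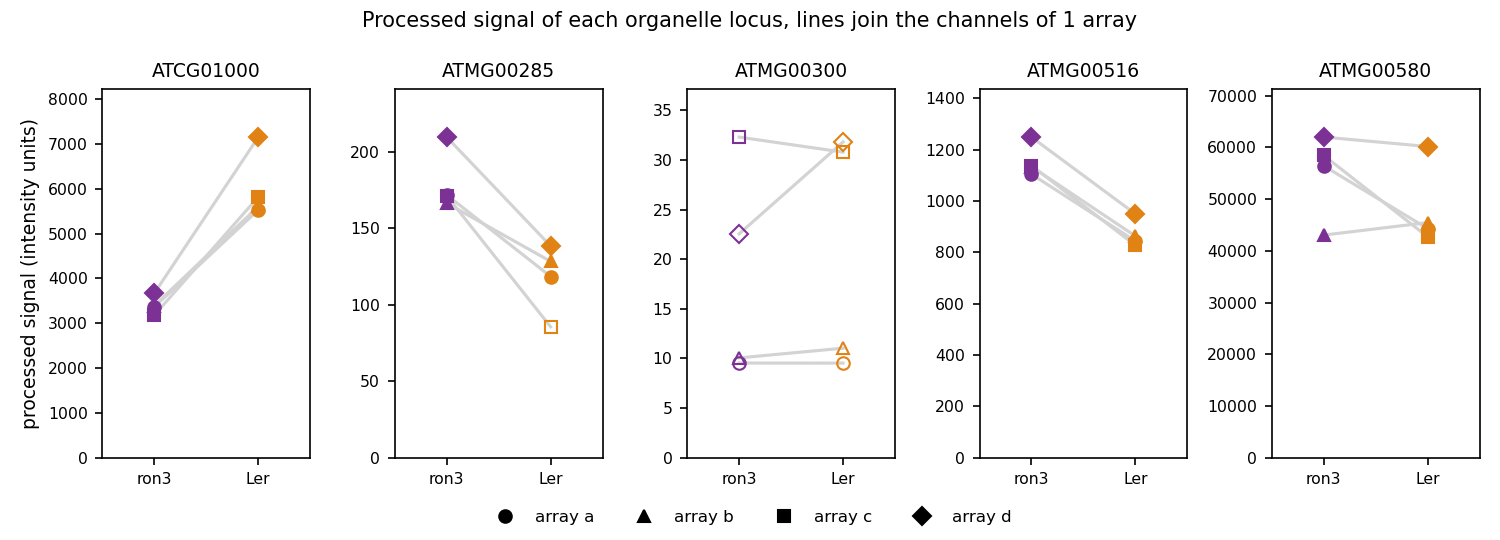
Processed signal in intensity units, on axes that start at 0, of each organelle locus in ron3 and in Ler on arrays a to d. Lines join the channels of an array and open symbols are channels not well above background. The groups do not overlap for ATCG01000, lower in ron3, nor for ATMG00285 and ATMG00516, higher in ron3, while they overlap for ATMG00580 and ATMG00300.

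In bulk tissue, fewer organelles or fewer cells of a kind and less RNA per organelle cannot be told apart. All 3 markers of mature mesophyll, the main photosynthetic tissue, passed the threshold downwards, as did 32.7% of all genes tested. The carbonic anhydrase gene CA1 fell by 1.27 on the log2 scale and the Rubisco small subunit gene RBCS1A by 0.17. The antenna gene CAB2 had a fitted change of −0.18, but its log2 ratio turned sign with the dye, at 0.19 and 0.20 on arrays a and c and −0.44 and −0.66 on arrays b and d. The summed processed signal of the 3 markers ran from 331436 to 398779 in ron3 and from 359680 to 467366 in Ler, and 0 of them were at 0. Root markers moved the other way, with 5 of 5 higher in ron3, against 36.9% of all genes tested, and a summed signal of 617 to 1484 in ron3 against 313 to 399 in Ler. In Ler, the root hair genes RHD6 and EXPA7 were well above background on 0 arrays. Both therefore passed the filter on dim probes through ron3 alone. That filter favours a rise in such genes, so the count of 5 rests in part on it. Of the other markers, the xylem gene XCP1 fell by 1.04, the stomatal genes FMA and SPCH by 0.42 and 0.29 and the trichome gene GL2 by 0.38, while the phloem gene SUC2, at −0.06, did not pass. The meristem genes STM and KNAT1 rose by 0.40 and 0.33 and CLV1 fell by 0.15. The part of these differences in tissue in the organelle values was not tested.

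Of the 4 mitochondrial loci 3 could be tested, and all 3 passed the threshold upwards, where 36.9% of all genes tested did so. The size of the rise and its stability differed between them. ATMG00516 gave the most even values. Its processed signal was 1104, 1134, 1138 and 1249 in ron3 on arrays a to d, against 844, 863, 827 and 950 in Ler. The ron3 values were all above the Ler values, as for 19.7% of all genes tested. Its log2 ratios were 0.44, 0.39, 0.45 and 0.38, a range smaller than that of the other 3 organelle loci tested. The fitted rise was 0.41 ± 0.04 (SE; 95% interval 0.32 to 0.51), or 1.33-fold (limma, adjusted p = 0.000916), and 19.1% of all genes tested rose further.

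**Figure D2:**
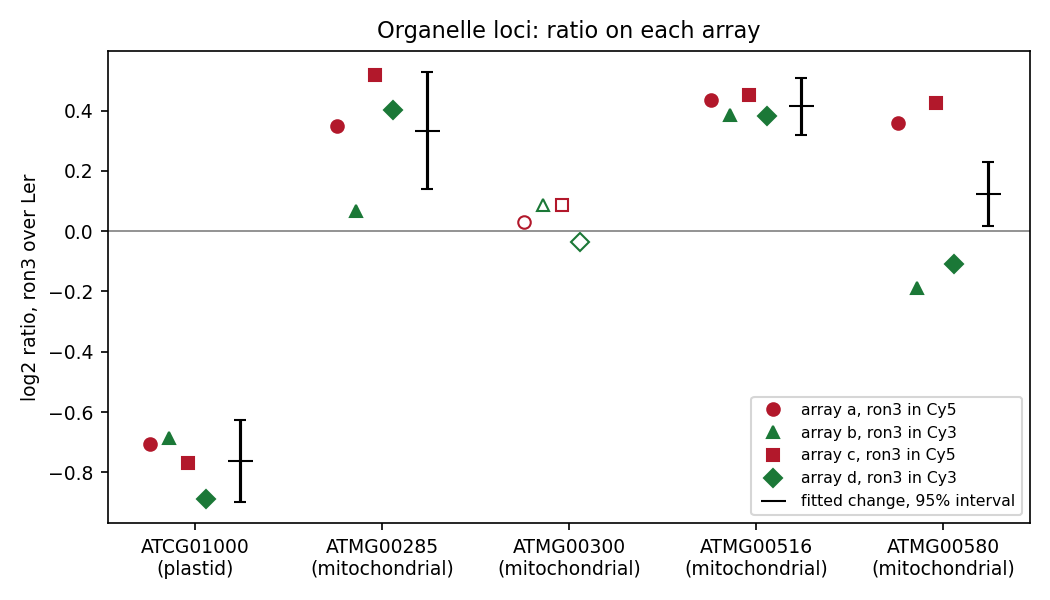
Log2 ratio of ron3 over Ler for each organelle locus, with 1 symbol per array coloured by the dye that ron3 carried, and the fitted change with its 95% interval to the right of the 4 arrays. Open symbols mark ATMG00300, which was not well above background. ATCG01000 lies below 0 on all arrays, ATMG00285 and ATMG00516 above 0 on all, and ATMG00580 above 0 on arrays a and c and below 0 on arrays b and d.

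ATMG00285 was dim, and its rise was uneven. Its processed signal was 172, 166, 171 and 209 in ron3 on arrays a to d, against 118, 128, 85.5 and 138 in Ler. The ron3 channel was well above background on 4 arrays and the Ler channel on 3, array c being the exception. The groups did not overlap, and the lowest ron3 value, on array b, exceeded the highest Ler value, on array d. The log2 ratios were 0.35, 0.07, 0.52 and 0.40, so that array b showed almost no difference. The fitted rise was 0.33 ± 0.07 (SE; 95% interval 0.14 to 0.53), or 1.26-fold (limma, adjusted p = 0.0139). Its size depended on the processing: the ratio computed by the scanner software Feature Extraction, which differs in background and in normalisation, gave 0.63, with 0.54, 0.38, 1.00 and 0.60 on the arrays. With no background correction as the only change it was 0.29. Without array c the rise was 0.29 and no longer passed (limma, adjusted p = 0.0759). In that setting 51.9% of all genes tested passed, against 69.7% with all 4 arrays.

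ATMG00580 was bright in both genotypes, and its ratio followed the dye. Its processed signal was 56427, 43056, 58447 and 62002 in ron3 on arrays a to d, against 44297, 45480, 42695 and 60182 in Ler. These values overlapped, and 0 of the spots were saturated. The log2 ratios were 0.36 and 0.43 on arrays a and c, where ron3 carried Cy5, and −0.19 and −0.11 on arrays b and d, where it carried Cy3. The fit attributed 0.27 of this to the dye (limma, unadjusted p = 0.00164; adjusted p = 0.406), and 1.98% of all genes tested had a larger dye effect. What remained for the genotype was 0.12 ± 0.04 (SE; 95% interval 0.02 to 0.23), or 1.09-fold, with an adjusted p of 0.0470 in limma. That call ended in 8 of 14 alternative settings, among them the omission of any 1 array (0.10 to 0.14, adjusted p = 0.0562 to 0.232) and a fit with no dye effect (adjusted p = 0.39). Without 1 array, 51.8% to 68.8% of all genes tested passed, against 69.7% with all 4. With the Feature Extraction ratio the call held, at 0.19 (limma, adjusted p = 0.0277), and array d was then positive, at 0.04. A ratio that turned sign with the dye on all 4 arrays was found for 4.64% of all genes tested, and 0.254% both turned and passed the threshold for the genotype.

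ATMG00300 gave no signal that could be compared. Its processed signal was 9.54, 10.06, 32.3 and 22.5 in ron3, against 9.53, 11.0, 30.8 and 31.8 in Ler, and it was well above background on 0 of 4 arrays in either genotype. It did not pass the filter on dim probes, and no fold is given.

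**Figure D3:**
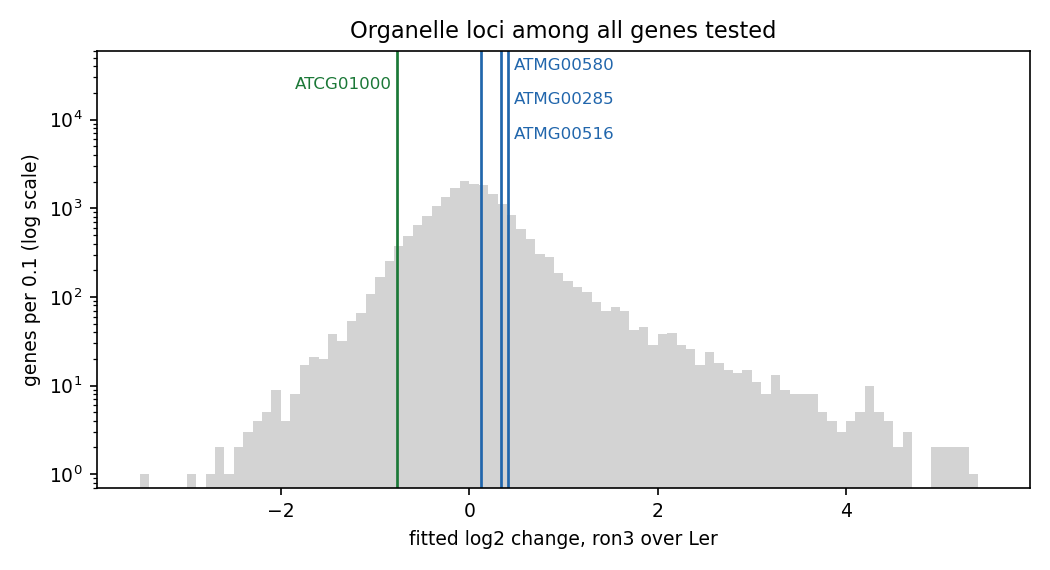
Number of genes (log axis) by fitted log2 change of ron3 over Ler, in bins of 0.1, for the 19269 genes tested, with the 4 tested organelle loci as vertical lines (green, plastid; blue, mitochondrial). ATCG01000 stands in the lower flank, with 4.86% of genes below it, and the 3 mitochondrial loci stand right of the centre within the bulk of genes.

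The order of the tested loci by fitted change was ATCG01000, ATMG00580, ATMG00285 and ATMG00516. The interval of ATCG01000 lay apart from those of the mitochondrial loci, while the interval of ATMG00285 overlapped those of both its neighbours. The median of the mitochondrial loci was 0.36, 0.07, 0.45 and 0.38 on arrays a to d, against a median over all genes tested of 0.02, 0.01, 0.04 and 0.01. With 1 plastid and 3 mitochondrial loci tested, these values describe the loci and not either genome. Chromosome 2 of Arabidopsis carries a large insertion of mitochondrial DNA, and transcripts of such nuclear copies could bind the same probes. The probe sequences were not analysed here, so the mitochondrial values cannot be assigned to the organelle's own transcripts alone.

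**Figure D4:**
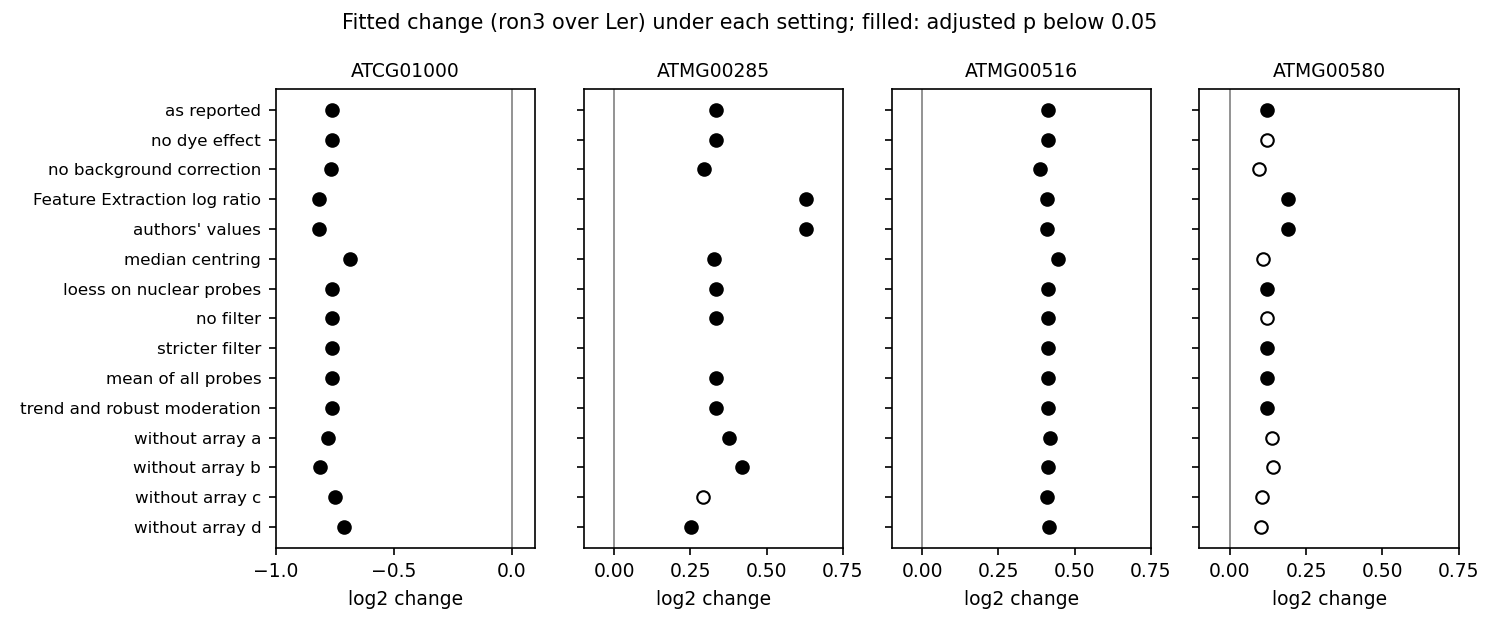
Fitted log2 change of ron3 over Ler for the 4 tested organelle loci under the reported setting and each of the 14 alternatives, filled where the adjusted p was below 0.05. ATCG01000 and ATMG00516 are filled throughout, ATMG00285 is open without array c and has no value under the stricter filter, and ATMG00580 is open in 8 alternatives.

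Nuclear genes for the same organelles were set beside these loci, from lists drawn up from general knowledge. All 17 measured nuclear subunits of plastid complexes passed the threshold downwards (median −0.70), where 32.7% of all genes tested did, next to the fall of ATCG01000. The median of this list was −0.55, −0.66, −0.39 and −1.03 on arrays a to d. PSBR, named after its values were seen, had a fitted change of −0.42, but its log2 ratio turned sign with the dye. It was 0.004 and 0.13 on arrays a and c and −0.85 and −0.98 on arrays b and d. PSAF, PSAE-1 and PSAK, subunits of photosystem I, had log2 changes of −1.20 ± 0.10, −0.75 ± 0.06 and −0.70 ± 0.06 (SE, n = 4). PSBO1, PSBP-1 and PSBQ-2, of the oxygen-evolving complex of photosystem II, stood at −0.78 ± 0.06, −0.80 ± 0.07 and −0.83 ± 0.07. These SEs leave out the spread that the fit gave to the dye. The SD of the log2 ratios over the 4 arrays was 0.40, 0.13, 0.45, 0.35, 0.36 and 0.19, in the same order. The Rubisco small subunit genes in that list are near-identical and may bind each other's probes. Of 14 measured nuclear loci listed for mitochondrial complexes, 4 of which carry a symbol, 13 rose and 0 fell (median 0.38), where 36.9% of all genes tested rose and 32.7% fell. The largest rises were 0.85 ± 0.04 at AT5G13440 and 0.65 ± 0.05 at AT5G08680, and the latter was 0.57 with its 2 probes averaged. ATP3, the gamma subunit of the mitochondrial ATP synthase, rose by 0.42 ± 0.04. Some loci of this list stand for the same subunit and may also bind each other's probes. CI51, a complex I subunit named after its values were seen, stood at 0.12 and did not pass (limma, adjusted p = 0.0883). ATMG00516 and ATMG00285 lay within the range of that list, which ran from 0.12 to 0.85, and ATMG00580 at its lower edge. ATCG01000 lay within the range of the plastid list, from −1.20 to −0.17.

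Of 18 measured nuclear genes that transcribe, process or maintain organelle genomes, 11 fell and 1 rose (median −0.38), where 32.7% of all genes tested fell and 36.9% rose. The list pools genes that serve plastids with genes that serve mitochondria, so these counts describe neither organelle alone. Of the 6 that did not pass, 3 were POLGAMMA2 and POLGAMMA1, organelle DNA polymerases, at 0.00 and −0.21, and ATWHY2, a Whirly protein, at −0.13. AT5G15700, listed as the phage-type polymerase RPOTMP, stood at −0.03, and AT5G14580, listed as the RNA turnover gene MTPNP, at 0.19. All of these were named after their values were seen. CP33, a chloroplast RNA-binding protein, had a log2 change of −0.96 ± 0.04 (SE, n = 4), the sigma factor SIG4 −0.79 ± 0.06 and the sigma factor SIGF −0.54 ± 0.04. RIF10, a plastid polynucleotide phosphorylase that trims and degrades RNA, stood at −0.70 ± 0.04, CSP41A, a stem-loop binding protein, at −0.73 ± 0.07, and the exoribonuclease gene EMB2730 at −0.56 ± 0.04. The member that rose was the sigma factor SIGE, at 0.31 ± 0.09, named after its values were seen (limma, adjusted p = 0.0295). It was lost with the Feature Extraction ratio, with the authors' values, and without array a or array c. Without array a and without array c, 51.8% and 51.9% of all genes tested passed, against 69.7% with all 4. SIG2 and SIGA, also named after their values were seen, fell by 0.72 and 0.36 and SIGC, the remaining gene that did not pass, stood at −0.08, so that 4 of 6 sigma factors fell.

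**Figure D5:**
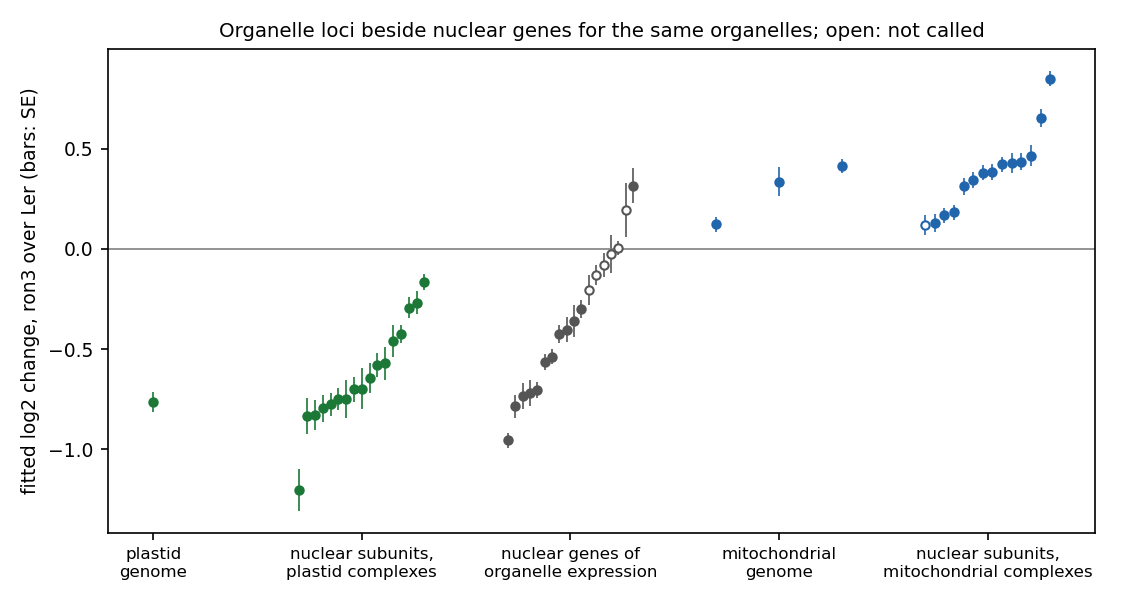
Fitted log2 change of ron3 over Ler, with SE bars, for the tested plastid locus, 17 nuclear subunits of plastid complexes, 18 nuclear genes of organelle gene expression, 3 mitochondrial loci and 14 nuclear loci listed for mitochondrial complexes. Open symbols did not pass the threshold. The plastid locus and all nuclear subunits of plastid complexes lie below 0, and the mitochondrial loci and those listed beside them lie above 0.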

How the data were processed

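Per the labels, each of 4 arrays held ron3 and Ler RNA, and per the file headers all lay on 1 slide. Quantification used Agilent Feature Extraction 10.1.1.1, per the file headers. Each deposited file gives, for spot and local background, the median pixel intensity in both dyes. It also holds processed signals, an intensity that the same software background-subtracted and dye-normalised. The log10 ratios in the deposited files are that software's Cy5 over Cy3 quotients of processed signals. Quality flags, of the unit kind other, were deposited as 0 or 1 in each channel. The authors' value table holds log2 ratios, turned to ron3 over Ler and not centred (medians −0.0109, −0.123, 0.00837 and −0.167 on arrays a to d), and equals the ratio of processed signals to within 5e-06.

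From the median signals, ratios were corrected with normexp (offset 50) and normalised by loess within arrays with controls at weight 0, in limma 3.58.1 and R 4.3.3. A probe was kept if at least 2 arrays had it well above background in ron3 or in Ler and at least 3 had no outlier flag. Each gene was represented by its brightest kept probe, which gave 19269 genes. A linear model with a dye effect per probe left 2 residual degrees of freedom, moderated with 2.44 prior ones. Each SE is that of this fit and, like the p-values from it, leaves out the spread given to the dye. Tests were two-sided, adjusted over all genes by Benjamini-Hochberg, with a threshold of 0.05. The fit was also run on simulated data, but the outcome is not reported here and is not used as support. The dye effect passed for 0 genes (limma), with 2202 at an unadjusted p under 0.05. The number of arrays limits the precision.

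Named were the 5 loci and, by rule, the 6 called members of lowest p in each nuclear list, of which 3 are printed for the mitochondrial list. Of 24 genes listed for organelle gene expression, 5 for which the reference table (TAIR10.1) gives only other names were left out and 1, WHY3, was dim. AT5G15700 and AT5G14580, which have no symbol there, were kept. The 5 left out had log2 changes of −0.73 (RPOTP), −0.36 (RNJ), −0.44 (CP29A), −0.38 (CP31A) and 0.20 (RPOTM). All but RPOTM passed the threshold, and they were named after their values were seen. The planned groups by function, promoter class and transcription unit could not be formed without gene names. The loci and lists were chosen with earlier results of these data known.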

Additional observations from a re-analysis of the deposited data

Results flagged for a closer look

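Among 22 genes examined for an array far from the other 3, the 4 tested organelle loci gave none. The 1 gene found was the nuclear photosystem I gene PSAE-1 (AT4G28750), whose log2 ratio was −0.94 on array d against −0.71 to −0.66 on the others. The gap to the nearest array was 0.849 of the whole range, above Dixon's 95% critical value for 4 arrays, and chance alone does this in about 1 in 20 groups.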

How the results depend on the processing

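The 14 alternatives changed the dye term, the background correction, the source of the ratios (Feature Extraction or the authors), the normalisation (median centring, loess on nuclear probes), the filter (none or stricter), the averaging of probes and the moderation, or omitted 1 array. The 14 are not separate tests for the organelle loci. Each locus has 1 probe, so averaging probes left its fitted change as it was, and the authors' values repeat the Feature Extraction ratio. ATCG01000 passed in all 14 (−0.82 to −0.69), as did ATMG00516 (0.39 to 0.45). ATMG00285 passed in 12 of the 13 that measured it (0.25 to 0.63), and ATMG00580 in 6 of 14 (0.10 to 0.19). Without 1 array, 1 or 2 mitochondrial loci changed in place of 3, with 1 without array c. The share of all genes tested that passed also fell. It was 69.7% as reported, and 51.8%, 68.8%, 51.9% and 66.8% without array a, b, c and d. The cause was not tested. Of the nuclear genes of organelle expression, the number that rose was 0 with the Feature Extraction ratio and 0 with the authors' values, and 0 to 2 without 1 array, against 1 as reported, while 10 to 13 fell in every alternative. Between 14 and 17 nuclear subunits of plastid complexes fell and 10 to 13 of the mitochondrial list rose. Over the 14 alternatives, 51.8% to 73.9% of all genes tested passed in either direction. The functional groups could not be run. ATMG00285 and ATMG00300 are limited by their signal over background.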
